A study of Mus musculus with 2 samples.

Results

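Keratinocytes of the upper hair follicle were described in dorsal skin of wildtype and *Eppk1*-/- mice. They were chosen by 3 genes: a cell was counted where *Krt79*, *Defb6* and *Cst6* together gave at least 0.3% of its unique molecular identifiers (UMIs, the tags that count single captured molecules). Cells with *Lce* genes at 1% of UMIs or more, with *Col1a1*, *Col1a2*, *Col3a1* and *Dcn* at 0.5% or more, or with *Scd1*, *Awat2*, *Elovl3*, *Far2* and *Mc5r* at 0.5% or more were left out. These limits were meant to set aside cornified cells, fibroblasts and sebocytes. Of the cells at 0.3% or more they took 27 of 637 in the wildtype and 38 of 439 in the knockout library. The *Lce* limit took 0 and 8 cells, the collagen and *Dcn* limit 18 and 21, and the sebocyte limit 9 and 25. The rule took 610 of 8875 wildtype cells (6.87%, exact 95% binomial interval 6.36 to 7.42%) and 401 of 8617 *Eppk1* knockout cells (4.65%, 4.22 to 5.12%), 1011 of 17492 in all. Of the keratinocytes of each library within the same limits these cells were 11.9% (10.99 to 12.8%) and 10.3% (9.35 to 11.3%).

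The study asked what the loss of epiplakin, a plakin that links the keratin cytoskeleton of epithelial cells, changes in skin. Untreated whole dorsal skin of 1 wildtype C57BL/6J mouse and of 1 *Eppk1*-/- mouse backcrossed to C57BL/6J was dissociated, and the mRNA of single fixed cells was counted with a probe panel for the mouse transcriptome. The gene is lost in the whole body, not in keratinocytes alone, the animals' age and sex are not given in the sources used here, and the same sources do not say where the *Eppk1* probes lie relative to the deletion. Both samples carried their own sample barcode and were pooled. With 1 library per genotype there is no measure of the spread between mice, so no test between genotypes was made, none of the differences has a replicate check, and all intervals cover counting error only.

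The wildtype library held 77638793 UMIs in 9179 cell barcodes, and the knockout library held 65118304 UMIs in 8811. The upper follicle cells contributed 4256010 wildtype UMIs, with a median of 4894 UMIs and 2223.5 genes per cell, and 2908607 knockout UMIs, with a median of 5485 UMIs and 2360 genes. Levels are given as CPM, the UMIs of a gene summed over a set of cells per 1000000 UMIs of all nuclear genes in that set, and only within a gene, since the number of probes differs between genes. The mitochondrial share of UMIs had a median of 0.680% in wildtype and 0.618% in knockout upper follicle cells, against 0.260% and 0.228% in the other keratinocytes. A droplet barcode was found in both libraries for 1141 droplets, which held 74 wildtype and 44 knockout upper follicle cells, and 1 droplet held an upper follicle cell of each. No full barcode, sample barcode included, was found in both libraries.

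The infundibulum is the funnel through which the hair follicle opens to the skin surface. Its keratinocytes renew largely apart from the interfollicular epidermis and the bulge, carry the keratin *Krt79* through the sebaceous duct, and cornify towards the hair canal, where microbes live. For that site the cells are known to make defensins, protease inhibitors, lipid enzymes and chemokines that attract immune cells, and GATA6 and SOX9 are among the transcription factors known from the duct and the upper follicle. KRT79 is a type II keratin, DEFB6 a beta-defensin of the epithelial surface, and CST6 (cystatin E/M) an inhibitor of legumain and of cathepsins in cornification.

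*Krt79* lies at chr15:101929332-101940324 on the minus strand, *Defb6* at chr8:19225478-19228209 on the plus strand and *Cst6* at chr19:5344705-5349574 on the minus strand (mm10, the GRCm38 build, GENCODE M21 gene spans). Of the other upper follicle markers, *Krt17*, a keratin of the follicle's outer layers, lies at chr11:100256217-100261029 on the minus strand, and *Gsdma3*, which encodes a pore-forming gasdermin of the follicle and sebaceous gland, lies at chr11:98626360-98638226 on the plus strand. The 250 bases before the annotated start are shown for the 3 of these 5 genes with an entry in the RefSeq table of GRCm38.p6 promoters, since these genes set the cells apart and *Gata6* was among the genes with the highest ratios to other keratinocytes. Each is written 5′ to 3′ on the gene's strand, and capitals mark the GATA motif letters AGATAA or TGATAA, searched on both strands. The *Gsdma3* window ends at base 98626348, so it follows a RefSeq start that differs from the GENCODE start given above. *Defb6* held 1 match, 115 bases before the start, and the windows of *Gsdma3* and *Krt79* held 0. Of all 32851 windows in the table, 5452 (16.6%) held a match, which is a description of letters and not of a bound site.

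Defb6: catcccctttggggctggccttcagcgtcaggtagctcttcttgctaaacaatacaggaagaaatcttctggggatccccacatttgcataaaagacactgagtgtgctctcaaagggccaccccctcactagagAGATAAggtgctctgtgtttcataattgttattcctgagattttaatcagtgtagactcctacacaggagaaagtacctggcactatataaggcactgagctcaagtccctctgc
Gsdma3: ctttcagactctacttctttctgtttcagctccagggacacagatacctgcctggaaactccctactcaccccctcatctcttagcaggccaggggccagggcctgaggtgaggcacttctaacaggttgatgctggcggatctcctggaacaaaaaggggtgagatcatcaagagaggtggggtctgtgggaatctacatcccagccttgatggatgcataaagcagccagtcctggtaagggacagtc
Krt79: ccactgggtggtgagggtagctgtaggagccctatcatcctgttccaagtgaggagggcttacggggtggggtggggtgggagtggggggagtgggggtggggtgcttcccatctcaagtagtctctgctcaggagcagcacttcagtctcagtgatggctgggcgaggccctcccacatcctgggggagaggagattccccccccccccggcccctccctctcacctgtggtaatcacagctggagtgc

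The cells varied widely in the 3 genes that chose them. The summed share of *Krt79*, *Defb6* and *Cst6* had a median of 1.42% of UMIs in the wildtype and 1.25% in the knockout cells, and reached 21.2% and 22.7%. All 3 genes were found in 464 wildtype cells (76.1%) and 291 knockout cells (72.6%). *Krt79* had a UMI in 92.1% and 93.3% of the cells, *Defb6* in 92.6% and 88.8%, and *Cst6* in 86.9% and 85.0%. In fibroblasts, which should lack these RNAs, *Krt79* had a UMI in 2.87% of 1535 wildtype cells and 1.68% of 2560 knockout cells, at medians of 6454 and 6173 UMIs per cell. Of the filtered cells, 6013 wildtype and 6675 knockout cells had no UMI of these genes and are not on the plot of the summed share. Among cells with such a UMI, a low second peak near 1% joins the larger peak at lower shares without a gap. The threshold thus cuts a continuous range.

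**Figure D1:**
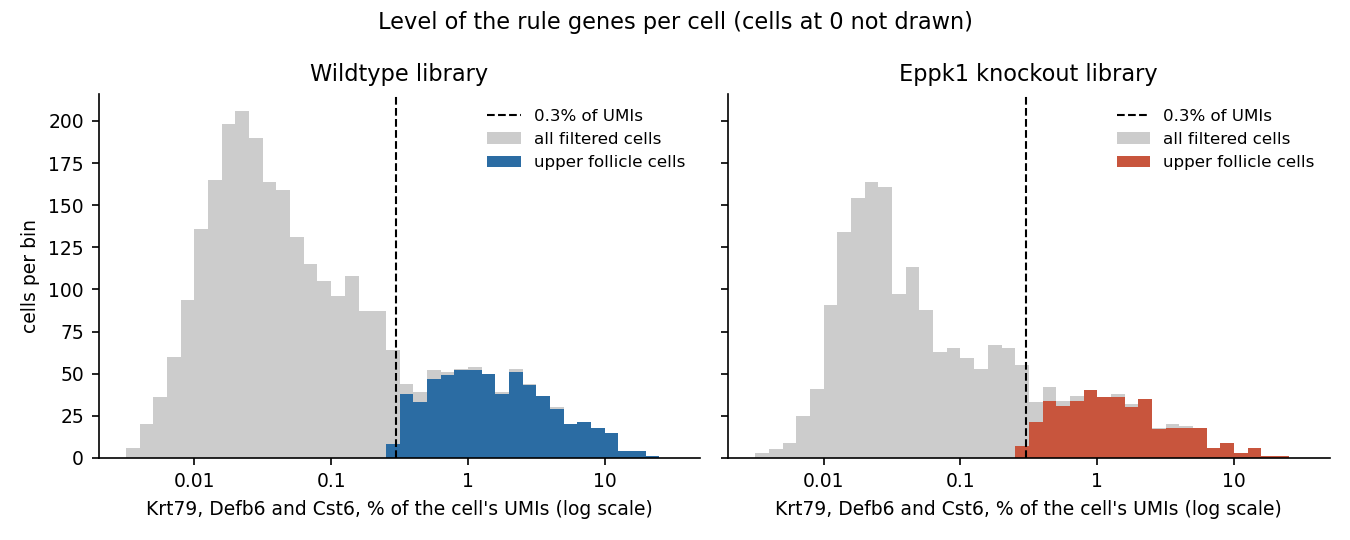
Number of cells (y axis) by the share of UMIs from *Krt79*, *Defb6* and *Cst6* in each cell (x axis, log scale), for filtered cells (grey) and for the upper follicle cells (colour), with the 0.3% threshold dashed. The 6013 wildtype and 6675 knockout filtered cells with no UMI of these genes are not on the log axis. The chosen cells span 0.302 to 21.2% (wildtype) and 0.3002 to 22.7% (knockout), with no gap at the threshold.

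Near the threshold the cells carried fewer follicle transcripts. The 47 wildtype and 29 knockout cells just inside it, at 0.3 to 0.4%, had *Krt17* at 4029 and 3534 CPM and *Gsdma3* at 21.9 and 27.0 CPM. The 104 and 49 cells just outside it, at 0.2 to 0.3%, had *Krt17* at 3080 and 3515 CPM and *Gsdma3* at 24.1 and 97.8 CPM. The 563 and 372 cells at 0.4% or more had *Krt17* at 7668 and 7596 CPM and *Gsdma3* at 219 and 171 CPM. Cells with *Flg*, *Flg2*, *Hrnr*, *Lor* and *Cdsn*, genes of the last living layers, at 1% of UMIs or more were 19.1% and 20.7% of the cells just inside the threshold and 4.62% and 4.03% of those at 0.4% or more. In both libraries late cells were thus a larger share of the cells just inside the threshold than of those above it.

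Both markers that the rule did not use, *Krt17* and *Gsdma3*, were higher than in other keratinocytes. They were chosen with earlier results of these data known, so their levels are no independent check of the label. *Krt17* stood at 7353 CPM in wildtype and 7232 CPM in knockout upper follicle cells, against 919 and 823 CPM in the 4531 and 3496 other keratinocytes, which were chosen by *Krt5*, *Krt14*, *Krt1* and *Krt10*. The *Lce*, collagen and sebocyte limits of the rule applied to the other keratinocytes too. *Gsdma3* stood at 202 and 158 CPM, against 7.56 and 7.43 CPM. When every cell was thinned to 2000 UMIs, leaving out 54 wildtype and 32 knockout upper follicle cells, *Gsdma3* had a UMI in 24.6% and 19.8% of upper follicle cells, 1.89% and 1.56% of other keratinocytes and 0.213% and 0.0842% of fibroblasts (35.1% and 31.7% of upper follicle cells before thinning). Because the cells were chosen by their own expression, all comparisons with other keratinocytes describe these cells and are not tests.

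At least 1 UMI of a sebocyte marker was found in most of these cells, and markers of the hair shaft, Merkel cells and muscle had few UMIs. Of the sebocyte markers outside the rule 4 had 50 UMIs, and 1 of these, *Mgst1*, was at least 2-fold higher than in other keratinocytes in both libraries. The 10 sebocyte markers outside the rule had a UMI in 92.3% and 93.8% of the cells and summed to 948 and 1057 CPM, against 698 and 642 CPM in other keratinocytes, with *Apoc1* giving the most UMIs at 519 and 546 CPM and *Dgat2l6* at 0, and *Acsbg1* stood at 282 and 345 CPM against 188 and 202 CPM in other keratinocytes. The inner sheath and hair shaft list of 13 genes gave 75 wildtype and 67 knockout UMIs in all, with *Krt71*, *Krt73*, *Krt34* and *Krt86* at 0. Merkel cell markers gave 8 and 16 UMIs, with *Krt20*, *Atoh1* and *Sox2* at 0, and muscle and pericyte markers gave 54 and 31 UMIs, with *Myh11* at 0. The 10 fibroblast markers outside the rule had at least 1 UMI in 35.7% of the upper follicle cells of either library and summed to 115 and 98.9 CPM, against 212 and 219 CPM in other keratinocytes, with *Fn1* giving the most UMIs at 41.4 and 30.4 CPM. Of the 9 bulge and germ markers with 50 UMIs, 5 were at least 2-fold lower than in other keratinocytes in both libraries and 1 was higher, with list medians of −1.41 and −1.50 on the log2 scale. *Col18a1* stood at 13.3 and 12.5 CPM against 62.5 and 69.4 CPM in other keratinocytes, and *Cd34* at 19.2 and 29.4 against 115 and 89.2 CPM. *Nfatc1* went the other way, at 253 and 266 against 105 and 109 CPM. The companion layer and outer sheath markers summed to 1142 and 1045 CPM against 2297 and 1695 CPM in other keratinocytes. *Krt16*, which gave the most UMIs, stood at 775 and 678 against 1979 and 1460 CPM, while *Barx2* stood at 188 and 186 against 53.5 and 53.1 CPM, *Krt75* had 9 and 1 UMIs, and *Krt6b* was at 0.

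Among the 4071 genes detected in 25% or more of the upper follicle cells of either library, with 50 UMIs or more, 294 (7.22%) were at least 2-fold higher than in other keratinocytes in both libraries, and 123 (3.02%) were at least 2-fold lower. Among the highest after the 3 rule genes was *Gsdma3*, with a log2 ratio of 4.74 in the wildtype and 4.41 in the knockout, and *Lingo1*, a membrane protein known from neurons, at 4.38 and 4.65. *Gata6*, the transcription factor of the duct and upper follicle, stood at 205 and 186 CPM against 20.1 and 15 CPM. Thinned to 2000 UMIs, *Gata6* had a UMI in 32.0% and 30.1% of upper follicle cells, in 4.46% and 2.99% of other keratinocytes, and in 2.91% and 5.47% of fibroblasts.

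Among the highest genes 4 encode enzymes. *Aadac*, an esterase of the endoplasmic reticulum, stood at 234 and 287 CPM against 15.8 and 17.5 CPM in other keratinocytes. *Fmo5*, a flavin monooxygenase, had log2 ratios of 3.70 and 3.61, *Gdpd1*, a glycerophosphodiester phosphodiesterase, 3.75 and 4.24, and *Abhd12b*, a member of the hydrolase family, 3.57 and 3.64. The other genes named by rank were *Cracr2b* (3.55 and 3.50), *Endod1* (3.25 and 3.58), *Inhbb*, a subunit of activin and inhibin (3.25 and 3.22), and *Nfe2l3*, a transcription factor of the NRF family (3.19 and 3.33). In the list of 9 upper follicle genes outside the rule, 7 were at least 2-fold higher in both libraries, with *Sox9* at 1241 and 1231 CPM against 331 and 269. Over all 8958 genes with 50 UMIs the shares were 7.68% higher and 4.5% lower. *Plet1* (log2 0.38 and 0.09) and *Lgr6* (−0.58 and −0.50) were the exceptions in that list.

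Genes of the basal layer were low. In the list of basal keratins and basement membrane adhesion, 11 of 14 genes were at least 2-fold lower in both libraries and none was higher, with a list median of −1.57 and −1.66 on the log2 scale. The other keratinocytes were chosen for *Krt5*, *Krt14*, *Krt1* and *Krt10*, so *Krt5* and *Krt14*, which are among the 11, are lower here by construction. *Krt5* stood at 1397 and 1221 CPM against 5005 and 5596 CPM, and *Col17a1*, the hemidesmosome collagen, at 532 and 478 against 2499 and 2570 CPM. *Krt15* was among the 3 exceptions, at 3215 and 2076 CPM against 2578 and 2594 CPM. Among genes with a UMI in 25% or more of the other keratinocytes of both libraries, the one with the lowest ratio, by the smaller fold of the 2 libraries, was *Igfbp3*, a binding protein of insulin-like growth factors, at 589 and 178 CPM against 7171 and 8600 CPM. After it came *Hs3st1* (−3.41 and −3.99), *Gja1*, the gap junction protein connexin 43 (−3.39 and −4.71), *F3*, which encodes tissue factor (−3.27 and −3.53), and *Ptgs2*, a prostaglandin synthase (−3.22 and −5.11). *Wnt3* (−3.07 and −3.53), the collagen-binding integrin *Itga2* (−3.03 and −4.29), *Ndufa4l2* (−3.01 and −4.47), *Sema3d* (−2.93 and −3.86) and *Antxr1* (−2.80 and −4.38) completed the 10 lowest of these genes.

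**Figure D2:**
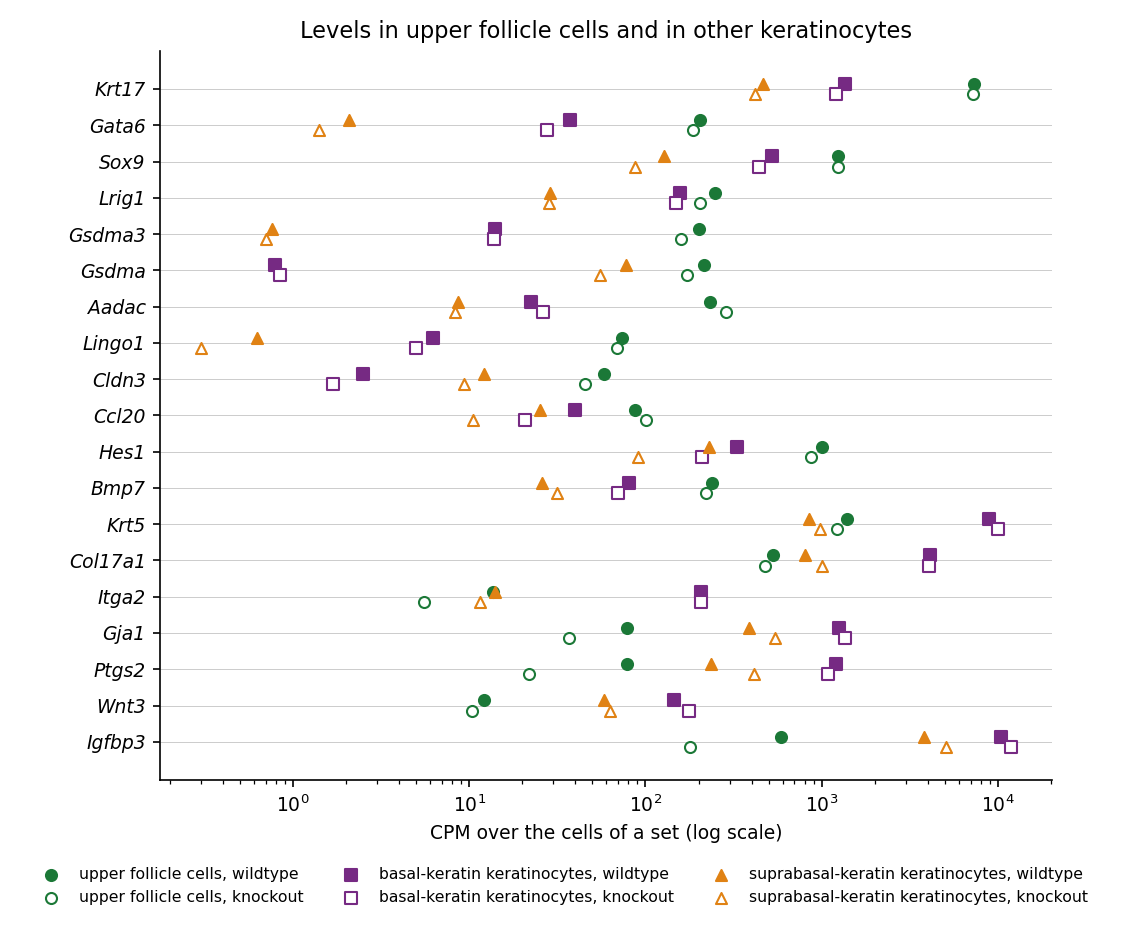
Level of 19 genes in CPM (x axis, log scale) in upper follicle cells (circles), other keratinocytes with more *Krt5* and *Krt14* than *Krt1* and *Krt10* UMIs (squares) and the remaining other keratinocytes (triangles), filled for the wildtype and open for the knockout library. *Krt17*, *Gata6* and *Gsdma3* lie to the right in upper follicle cells of both libraries, and *Col17a1*, *Gja1* and *Igfbp3* lie to the left.

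Differentiation and cornification genes were mixed. In the suprabasal list 2 of 14 genes were at least 2-fold higher than in other keratinocytes and 3 were lower: *Krt10* stood at 5120 and 5977 CPM against 12699 and 12630 CPM and *Krt1* at 236 and 360 against 1897 and 2453 CPM, while *Dsc1*, a desmosomal cadherin, stood at 984 and 945 against 295 and 231 CPM. *Krt1* and *Krt10* too were used to choose the other keratinocytes, and the remaining lower gene was *Krt78* (−2.37 and −2.49). In the granular and cornified list 9 of 22 genes were higher and 1 was lower. *Sprr1a*, a precursor of the cornified envelope, stood at 18509 and 19975 CPM against 6607 and 6042 CPM, and *Klk7*, a protease of desquamation, at 1135 and 1163 against 309 and 258 CPM. Of the follicle and stress keratins 2 of 4 were higher (*Krt17* and *Krt23*) and 1 was lower (*Krt16*). Sprr genes share sequence, so probes of one member may count others.

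Gasdermins and caspases, the pore formers and proteases of lytic cell death and cornification, were high as a list, with 6 of 12 genes at least 2-fold higher and none lower. *Gsdma* stood at 214 and 172 CPM against 38.2 and 27.4 CPM, and *Gsdmc* had log2 ratios of 2.17 and 3.59. *Il1a* and *Il18*, cytokines of the interleukin-1 family, had ratios of 1.38 and 1.69, and of 1.60 and 1.48. *Gsdma* and *Gsdmc* genes have close paralogs, and *Gsdmc2*, *Gsdmc3* and *Gsdmc4* were at 0. In the defence list 2 of 7 genes were higher and none lower: *Defb1* stood at 457 and 422 CPM against 186 and 105 CPM, and *S100a9* at 24.8 and 20.4 against 2.60 and 0.777 CPM. Of the cystatins, legumain and cathepsins 3 of 13 were higher and none lower, among them *Ctsd* (1.84 and 2.02), a lysosomal protease, and *Ctsb* (1.08 and 1.31).

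Chemokines and cytokines showed 6 of 26 genes higher and 3 lower. *Ccl20*, which attracts CCR6-bearing immune cells, stood at 86.8 and 100.3 CPM against 32.8 and 15.8 CPM in other keratinocytes, but was found in 7.05% and 5.24% of the upper follicle cells, and 58.6% and 84.5% of its UMIs lay in 5 cells. *Csf1*, the growth factor of macrophages, had ratios of 1.91 and 1.11, and *Il1f6* (IL-36 alpha) of 2.90 and 2.52. Low were the epithelial alarmins *Il33* (−3.54 and −2.89) and *Tslp* (−3.04 and −3.87) and the chemokine *Cxcl14* (−2.07 and −2.55). These 3 genes were each at least 4-fold lower than in other keratinocytes in both libraries.

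Among signalling genes, 3 of 14 Notch pathway genes were higher and 2 lower. The Notch target *Hes1* stood at 997 and 875 CPM against 280 and 151 CPM, *Nrarp* had ratios of 1.41 and 2.05, and *Notch3* of 1.13 and 1.06. In the Wnt, BMP and Hedgehog list 3 of 19 were higher, *Bmp7* (2.13 and 2.11), the Wnt feedback gene *Axin2* (1.29 and 1.15) and *Sostdc1* (1.13 and 1.28), and 5 were lower, among them *Wnt7b* (−2.22 and −2.79). Tight junction genes were 3 higher and 1 lower of 18, with the claudins *Cldn3* (3.004 and 3.08), *Cldn8* (2.18 and 1.94) and *Cldn23* (1.67 and 2.04) high. Of the desmosome and adherens junction genes 1 of 19 was higher. Cholesterol synthesis had 0 of 22 higher and 4 lower, and fatty acid and neutral lipid synthesis 1 of 17 higher (*Agpat3*, 1.81 and 1.76) and 1 lower. Glucocorticoid-responsive genes were 4 higher and 2 lower of 22, interferon-stimulated genes 2 higher and none lower of 16, and immediate early and heat shock genes 3 higher and 1 lower of 24, with *Egr2* at 748 and 784 against 172 and 162 CPM.

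The upper follicle cells ran from basal-like to suprabasal keratin content. *Krt5* and *Krt14* UMIs exceeded *Krt1* and *Krt10* UMIs in 279 wildtype cells (45.7%, 41.7 to 49.8%) and 187 knockout cells (46.6%, 41.7 to 51.7%), so the shares differed by less than their counting intervals. The split is a range and not 2 types: 152 (24.9%) and 78 (19.5%) cells lay within 2 UMIs of equality. Suprabasal-keratin cells were deeper, at medians of 5314 and 6291 UMIs, than basal-keratin cells at 4138 and 4461. Late cells, with *Flg*, *Flg2*, *Hrnr*, *Lor* and *Cdsn* at 1% of UMIs or more, numbered 35 (5.74%) and 21 (5.24%), had medians of 15887 and 17057 UMIs, and gave 14.3% and 13.3% of all upper follicle UMIs.

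**Figure D3:**
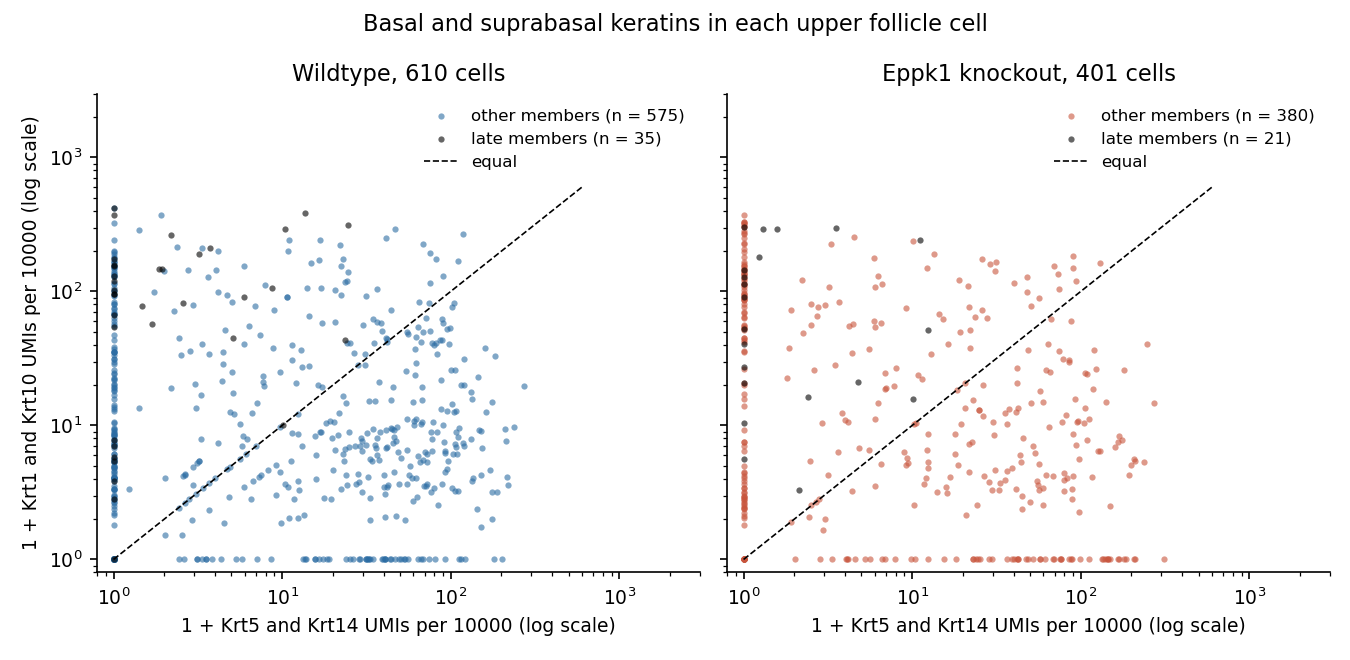
*Krt1* and *Krt10* UMIs (y axis) against *Krt5* and *Krt14* UMIs (x axis) in each upper follicle cell, per 10000 UMIs plus 1 on log scales, wildtype left and knockout right. Points below the dashed line of equality are the 279 and 187 basal-keratin cells, and the 35 and 21 late cells (black) lie on or above it.

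Genes other than the 4 keratins that made the split also differed along this range. For this comparison late cells were left out, which left 296 wildtype and 193 knockout suprabasal-keratin cells and all basal-keratin cells. *Dnase1l3*, a secreted DNase, was higher in suprabasal-keratin than in basal-keratin cells by 2.64 in the wildtype and 2.97 in the knockout on the log2 scale. *Odc1*, the first enzyme of polyamine synthesis, was higher by 2.27 and 2.29, *Krtdap* by 2.17 and 2.59, and *Klk5* by 2.00 and 2.04. The ceramide genes *Elovl4* (2.16 and 2.36) and *Cyp4f39* (2.17 and 2.44), which make and modify very long fatty acids of the skin barrier, were higher too. *Lamb3*, a chain of laminin-332, was lower by −2.71 and −3.14, *Col17a1* by −2.29 and −2.64, *Itgb4* by −2.07 and −2.04, the chemokine *Cxcl12* by −1.85 and −2.34, and *Sostdc1* by −2.32 and −2.02. *Angptl4* and the metallothionein *Mt2* were also lower in the suprabasal-keratin cells (−2.55 and −2.88, and −1.70 and −2.06).

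*Eppk1*, at chr15:76101481-76120195 on the minus strand, was lower in the library labelled knockout. It stood at 2402 CPM (2355 to 2449) in wildtype and 549 CPM (522 to 576) in knockout upper follicle cells, a log2 ratio of −2.13 (−2.21 to −2.05), against −2.02 in the other keratinocytes. It was detected in 86.9% of the wildtype cells and in 47.4% of the knockout cells, and thinned to 2000 UMIs in 78.6% and 27.9%, against 10.7% and 3.33% of fibroblasts. The remaining knockout UMIs were unevenly spread: 38.0% lay in 5 cells, and the 21 late cells held 56.1% of them, whereas the 35 late cells of the wildtype held 28.3%. The ratio was −3.23 in basal-keratin cells, −1.99 in suprabasal-keratin cells, −1.03 in late cells and −2.85 when late cells were left out. The 6 other plakins stayed within 0.25 of equality: *Plec* was at 0.23, *Evpl* 0.09, *Macf1* −0.01, *Dsp* −0.03, *Ppl* −0.07 and *Dst* −0.23. In other settings *Plec* reached 0.36 (thinned to 2000 UMIs) and *Dst* −0.39 (without a cell filter).

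Beyond *Eppk1* few genes differed by much between the 2 libraries. Of the 4071 genes tested by size, 32 (0.786%) were at least 0.5 higher on the log2 scale in the knockout and 48 (1.18%) were at least 0.5 lower, with a median of −0.01 over all of them. In other keratinocytes the same rule gave 7 (0.2%) higher and 18 (0.514%) lower of 3502. These shares were not compared at equal depth. The other keratinocytes held 29726913 wildtype and 20664147 knockout UMIs, against 4256010 and 2908607 in the upper follicle cells. Of the 32 higher genes 16 were found in 25% of the cells of both libraries, and of the 48 lower genes 33, so the rest entered through the library in which they were high. The same direction was seen in other keratinocytes for 29 of the 32 and 37 of the 48, and 2 and 13 of them also passed 0.5 there. Both sets of cells came from the same 2 libraries, so this is no replicate check. The share with the same direction among all 4071 genes is not given here.

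Among the 4071 genes tested by size, each with a UMI in 25% or more of the cells of a library and 50 UMIs, the lowest ratio after *Eppk1* was that of *Igfbp3*, which stood at 589 CPM in wildtype and 178 CPM in knockout cells (−1.72, −1.86 to −1.59), where 68.4% of the UMIs lay in 5 cells, while in other keratinocytes it stood at 7171 and 8600 CPM. *Fkbp5*, a co-chaperone of the glucocorticoid receptor, stood at 86.1 and 34.2 CPM (−1.33, and −1.76 in other keratinocytes). Without late cells *Igfbp3* was at −1.70 and *Fkbp5* at −1.23, and without the immune-marker cells, those with *Cd207*, *H2-Aa*, *H2-Ab1*, *H2-Eb1* and *Cd74* at 0.1% of UMIs or more, at −1.63 and −1.41.

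*Serpina3g*, a protease inhibitor, stood at 125 and 64.0 CPM (−0.97, and −1.20 in other keratinocytes), and *Txnip*, an arrestin-like regulator of glucose uptake, at 1307 and 723 CPM (−0.85 and −1.06). *Cyp1b1*, a cytochrome of the aryl hydrocarbon response, had −0.84 in upper follicle cells and −0.85 in the others. The amino acid transporter *Slc43a2* (−0.90 and −0.54), the mitochondrial cyclophilin *Ppif* (−0.90 and −0.13) and *Mt2* (−0.86 and −0.11) were also among the 10 lowest. *Txnip*, *Fkbp5*, *Serpina3g* and *Cyp1b1* were thus low in both kinds of keratinocyte of the knockout library, and *Ppif* and *Mt2* were close to equality in the others.

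Among the same 4071 genes the highest ratio was that of an immune gene. *Cd74*, the invariant chain of MHC class II, stood at 348 and 900 CPM (1.37, 1.28 to 1.47), *Hmox1*, heme oxygenase 1, at 215 and 429 CPM (0.99), and *Grn*, progranulin, at 80.5 and 126 CPM (0.65). With the 31 wildtype and 27 knockout immune-marker cells left out, these ratios were −0.11, −0.40 and −0.13, and *Cd74* itself helped to choose the cells left out. *Angptl4*, a lipoprotein lipase inhibitor, stood at 84.7 and 171 CPM (1.01, 0.81 to 1.21) with a UMI in 19.3% and 31.7% of cells (12.9% and 21.7% thinned to 2000 UMIs, against 51.1% and 38.3% of fibroblasts), and was at 1.19 without those cells and at 0.97 without late cells. *Selenop*, a selenium carrier, stood at 480 and 863 CPM (0.85, and 0.34 without the immune-marker cells), against 0.06 in other keratinocytes. *Dvl2* (0.76), a Wnt pathway adaptor, *Ier5l* (0.74), *Zfp296* (0.71), *Hyal1* (0.67) and *Fam83a* (0.66) made up the rest.

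**Figure D4:**
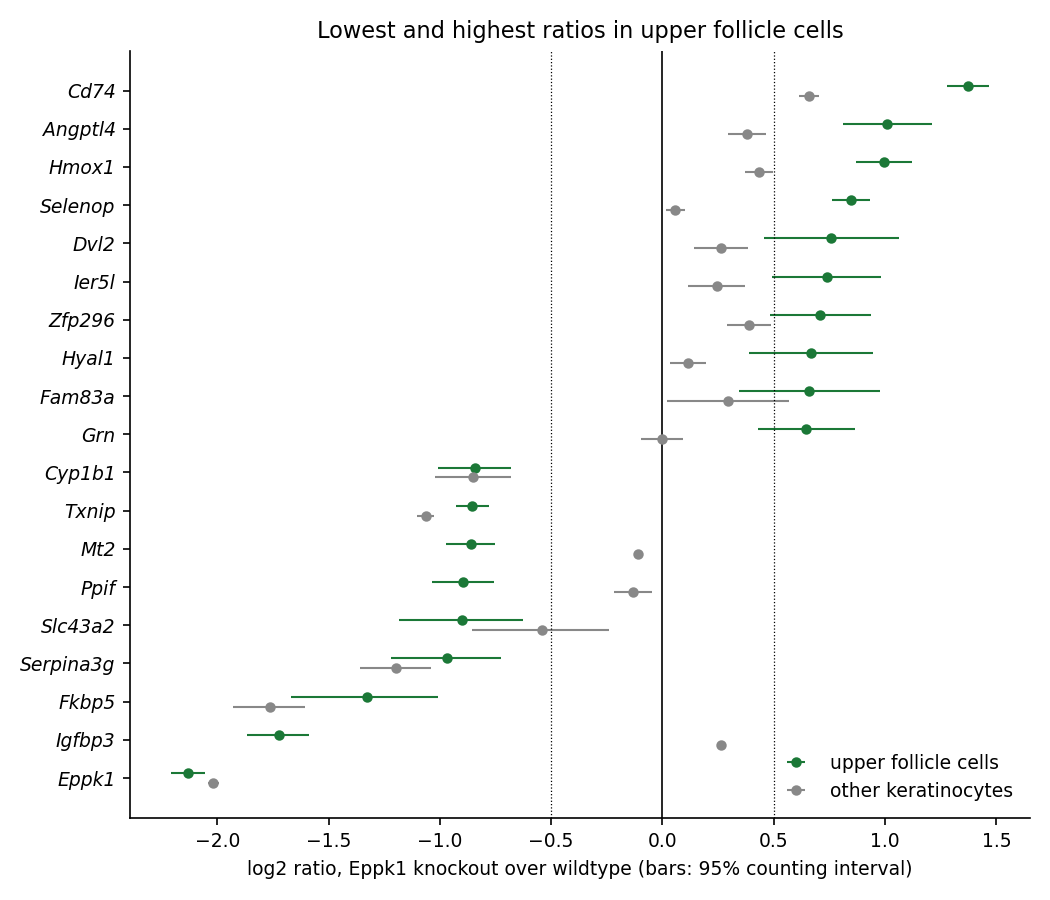
Log2 ratio, knockout over wildtype (x axis), of genes with the lowest and the highest ratios in upper follicle cells (green), with the same gene in other keratinocytes (grey) and exact 95% counting intervals as bars. *Eppk1* lies near −2 in both sets, and *Igfbp3* lies at −1.72 in upper follicle cells and at 0.26 in the others.

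Gene lists were read against all 8958 genes with 50 UMIs, of which 439 (4.9%) were higher and 453 (5.06%) lower by 0.5 or more, with a median of −0.02. The list with the largest number of low genes was the glucocorticoid response, with 7 of 22 lower, 1 higher and a median of −0.21, the same as its median in other keratinocytes. Besides *Fkbp5*, *Mt2* and *Txnip* these were the leucine zipper gene *Tsc22d3*, known as GILZ (150 and 85.8 CPM, −0.80), the zinc finger gene *Zbtb16* (213 and 121 CPM, −0.81), *Pik3r1* (−0.56) and *Sesn1* (−0.62), and the higher gene was *Angptl4*. *Pik3r1* was at −0.40 for a threshold of 0.2% and at −0.48 without the highest doublet scores. *Sesn1* was at −0.34 as a mean over cells and at −0.45 thinned to 2000 UMIs. *Clock* output genes were 3 of 8 lower, 0 higher, with a median of −0.42 (*Bhlhe40* −0.68, *Hlf* −0.86, *Dbp* −0.50 with an interval of −1.37 to 0.28), and the 5 genes of the opposite clock phase, 0 of them past 0.5, had a median of 0.16.

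Of the 9 upper follicle genes outside the rule, 8 stayed within 0.5 and 1 was lower. The ratio was below 0 for 7 of them, with a median of −0.14, against −0.16 in other keratinocytes. *Krt17* stood at −0.02, *Sox9* at −0.01, *Gata6* at −0.14, *Lrig1*, a stem cell marker of the junctional zone, at −0.29 and *Gsdma3* at −0.35. The rule genes had ratios of 0.02 (*Krt79*), −0.20 (*Defb6*) and −0.31 (*Cst6*). The rule set a minimum on their summed share in every chosen cell of both libraries. These ratios, and those of genes that vary together with the rule genes, thus do not show whether identity differed. In the basal list 2 of 14 genes were lower, among them *Krt15* (−0.63, and −0.45 at a threshold of 0.2%), with a median of −0.16. Follicle and stress keratins had 0 of 4 past 0.5 in either direction and a median of −0.03, and gasdermins and caspases 0 of 12 and −0.18.

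Among cornification genes, several of those past 0.5 had most of their UMIs in few cells. In the granular list 4 of 22 genes were higher and 1 lower, with a median of 0.03. *Flg*, the filaggrin gene, stood at 1261 and 7299 CPM (2.53, 2.49 to 2.58) but had a UMI in 18.4% and 20.7% of cells, with 76.6% of the knockout UMIs in 5 cells, and its ratio was 1.30 without late cells, which *Flg* itself helped to choose. *Casp14*, the protease that processes filaggrin, was at 1.12 and at 0.02 without late cells, *Kprp* was at 0.58 and at −0.10 with a threshold of 0.2%, and *Rptn* at 1.12 rested on 20 and 30 UMIs. *Sprr2d* had 98 wildtype UMIs, 91.8% of them in 5 cells, and 1 in the knockout. The suprabasal list had *Krt1* higher (0.61), *Krt78* lower (−0.58) and a median of −0.03, with *Krt1* at 0.18 for a threshold of 0.2% and at 0.28 without the deepest 5% of cells.

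Defence and signalling lists had medians near that of all genes. The defence list had 1 of 7 higher, *Lyz1* (11 and 169 UMIs, 96.4% of the latter in 5 cells), 1 lower, *Slpi* (−1.28), and a median of −0.08. *Lyz1* was at −0.21 without the immune-marker cells, and *Slpi* was at 0.11 without the deepest 5% of cells and at −0.40 without a cell filter. The cystatin and cathepsin list had 4 of 13 higher, *Ctss*, *Ctsz*, *Lgmn* and *Stfa3*, none lower and a median of 0.12. Without the immune-marker cells *Ctss* (1.11) was at −1.75, *Ctsz* (0.80) at −0.67 and *Lgmn* (0.56) at 0.41. Cytokines had 6 of 26 higher, among them *Ccl7* (1.09), *Cxcl2* (0.96), *Cxcl9* (0.99) and *Il33* (0.75), and 5 lower, among them *Csf1* (44.5 and 21.1 CPM, −1.07) and *Tslp* (−0.89). Without the immune-marker cells *Cxcl2* was at −2.23, *Cxcl9* at −0.86, *Ccl7* at 0.42 and *Il33* at 0.88. *Il33* was at 0.16 without a cell filter, and *Tslp* at −0.11 thinned to 2000 UMIs. Interferon-stimulated genes had 4 of 16 higher, *Isg15*, *Irf7*, *Oasl1* and *Bst2*, none lower and a median of 0.05. All 4 were at or below −0.01 without the immune-marker cells.

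Notch genes were 1 higher of 14 (*Lfng* 0.55; median 0.08), Wnt, BMP and Hedgehog genes 2 higher (*Bmp2* 0.57 and *Sostdc1* 0.51) and 1 lower of 19 (*Wnt10a* −0.58; median −0.10). Thinned to 2000 UMIs, *Lfng* was at −0.48 and *Bmp2* at −0.06. *Sostdc1* was at 0.34 without the deepest 5% of cells and at 0.35 without a cell filter. YAP and TEAD targets were 1 higher (*Asap1* 0.66) and 3 lower of 19. *Ccn2*, the best known of these targets, stood at 68.6 and 27.0 CPM (−1.34, and −1.69 in other keratinocytes), with *F3* at −0.74 and *Nt5e* at −0.71. Desmosome and adherens junction genes were 0 past 0.5 of 19 with a median of −0.03, and tight junction genes 1 lower of 18, *Cldn8* at 33.1 and 17.3 CPM (−0.93), with a median of 0.00. Cholesterol synthesis was 2 lower of 22 (*Acat2* −0.93, *Sc5d* −0.55) with a median of −0.16, but *Acat2* was at 0.12 as a mean over cells and *Sc5d* at −0.12 without the deepest 5% of cells. Fatty acid synthesis was 1 higher (*Plin2* 0.52) and 1 lower (*Elovl7* −0.50) of 17 with a median of 0.01, each of them under that size in 10 of 17 other settings. Immediate early and heat shock genes, which respond to dissociation, were 0 past 0.5 of 24 with a median of 0.00, and cell cycle genes 1 higher of 9 (*Ccne2*, 0.65, −0.01 to 1.32) with a median of 0.09.

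**Figure D5:**
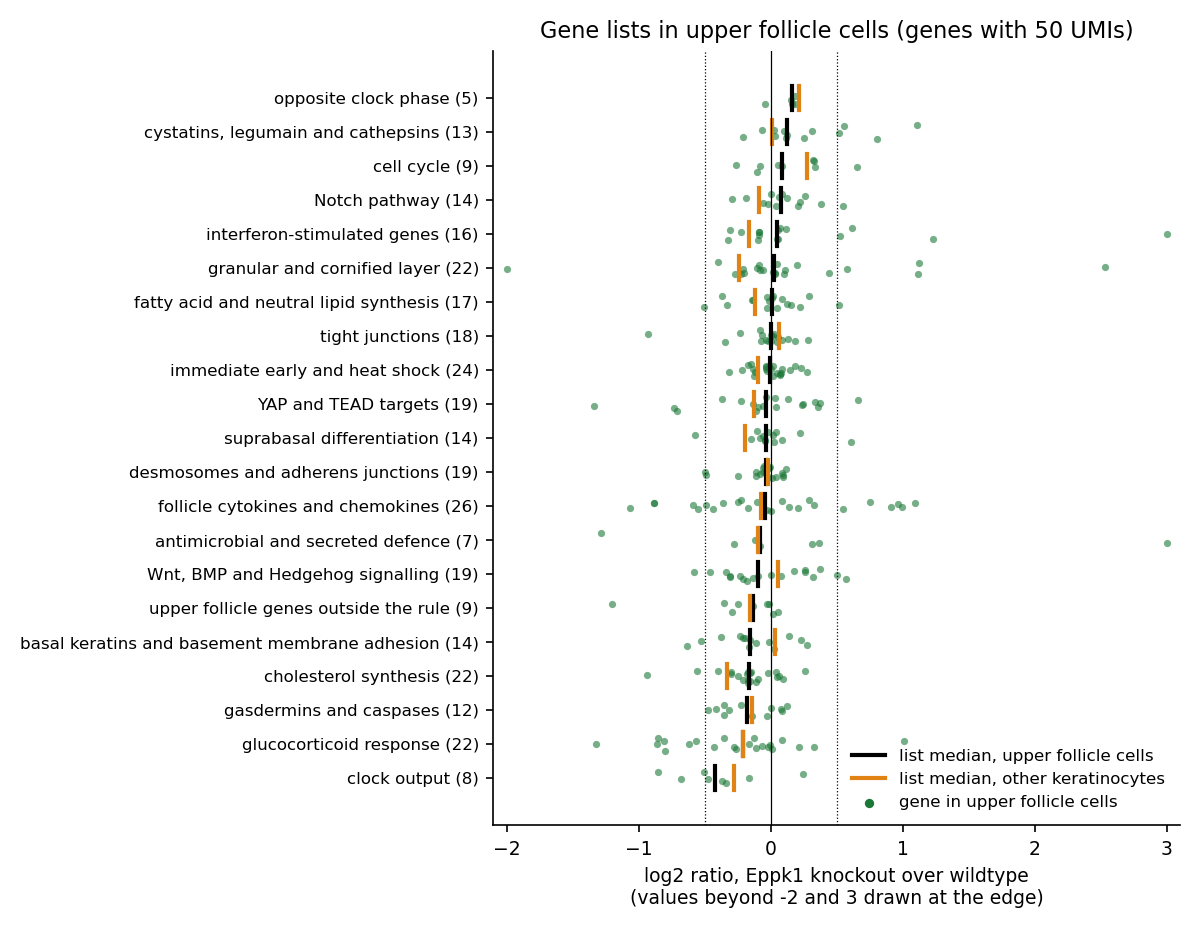
Log2 ratio, knockout over wildtype (x axis), of each gene with 50 UMIs in the listed groups (points), with the list median in upper follicle cells (black) and in other keratinocytes (orange); dotted lines stand at 0.5 in each direction and the number of genes is in brackets. *Clock* output has the lowest list median at −0.42, and the glucocorticoid response has medians of −0.21 in both sets.

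Some genes stood apart from the other keratinocytes in how they compared between libraries. Among the 4071 genes tested by size, the difference of log2 ratios, upper follicle minus other, was above 0.5 for 45 and below −0.5 for 34. Thinned to 2000 UMIs, these counts were 28 and 7 of 1361 genes. *Cd200*, an inhibitory ligand for myeloid cells, stood at 177 and 196 CPM in upper follicle cells (0.15) and at 36.0 and 19.2 CPM in the others (−0.90), a difference of 1.05. *Efna3*, an ephrin ligand (−0.16 and −1.12), the retinol-binding protein *Rbp2* (0.12 and −0.80), *Endou* (−0.52 and −1.35) and the matricellular gene *Ccn1* (0.33 and −0.49) followed. Without a cell filter *Ccn1* was at −0.085 in upper follicle cells, the sign it had in the others. At the other end were *Igfbp3* (−1.72 and 0.26), *Zbtb7c* (−0.50 and 0.29), the glypican *Gpc1* (−0.58 and 0.19), *Ppif* and *Mt2*. No difference in this set was tested against the spread between mice.

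Marker genes of immune and pigment cells had UMIs in a minority of the upper follicle cells, and their summed levels differed between the libraries. The 8 Langerhans and dendritic markers had a UMI in 40.2% and 38.9% of the cells and summed to 816 and 2176 CPM, with 79.8% and 60.5% of the UMIs in 5 cells, *Cd74* giving the most and *Flt3* at 0. The 8 macrophage markers summed to 206 and 519 CPM, with 72.5% and 55.0% in 5 cells, and *C1qa* stood at 42.4 and 115 CPM. T and NK markers summed to 43.5 and 63.6 CPM. Mast cell markers summed to 79.0 and 7.26 CPM, with 315 of the 334 wildtype UMIs in 5 cells: *Mcpt4* had 117 and 3 UMIs, and *Cpa3* had 83 and 0, a count that allows up to 1.04 CPM. Melanocyte markers had 119 wildtype UMIs, 116 of them in 1 cell, and 1 in the knockout, with *Mlana* at 0, and endothelial markers had 5 and 53, 44 of the latter in 1 cell.

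Cells in the top 5% of doublet scores were 24 (3.93%) of the wildtype and 22 (5.49%) of the knockout upper follicle cells. With them left out 32 genes were higher and 40 lower by 0.5, of which 21 and 26 were shared with the full set. With the immune-marker cells left out 27 were higher and 43 lower, 19 and 35 of them shared, and with late cells left out 38 and 51, 30 and 38 of them shared. *Eppk1*, *Fkbp5*, *Txnip* and *Igfbp3* stayed below −0.5 in each of these 3 settings. For 46 of the list genes past 0.5 the ratio was recomputed under 17 other settings. Of these, 14 stayed past 0.5 in every setting, among them *Angptl4*, *Ccn2*, *Cldn8*, *Csf1*, *Hlf*, *Tsc22d3* and *Zbtb16*, 32 fell under 0.5 in at least 1, and 14 of these took the other sign in at least 1. The source of the immune transcripts was not tested.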

How the data were processed

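Single cells of 2 libraries were analysed, 1 wildtype and 1 *Eppk1* knockout, with groups taken from the sample labels. The authors deposited UMI counts per gene and cell barcode, made with Cell Ranger 8.0.1 (file header) on mm10, the GRCm38 build (submitters' processing notes). The deposited counts were whole numbers without normalization. The study's filter was used: a cell had 200 to 45000 UMIs, between 100 and 7500 genes, and a mitochondrial share of 10% or less, and mitochondrial genes were left out of all sums.

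UMIs were summed per library over the cells of a set and given as CPM with exact 95% Poisson intervals. Log2 ratios were taken after adding 0.5 UMI to each sum, with the exact conditional binomial interval, and shares have Clopper-Pearson intervals. A count of 0 allows up to 3 counts. All intervals cover counting error only, and the depth per set sets their width. Other keratinocytes had *Krt5*, *Krt14*, *Krt1* and *Krt10* at 0.5% of UMIs or more and were not upper follicle cells. They also met the *Lce*, collagen and sebocyte limits of the rule, so cells past these limits are in neither set. Fibroblasts had the 4 collagen and matrix genes of the rule at 2% of UMIs or more and the 4 keratins under 0.5%. A size of 0.5 on the log2 scale and a UMI in 25% of cells of a library were taken from the study's rule. The minimum of 50 UMIs was added here, and the study's adjusted p-value was not applied.

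The text names the rule genes and 2 markers, the plakins, the 10 highest and lowest log2 ratios and the 5 highest and lowest differences from other keratinocytes among genes with these minimums, the 15 highest levels over other keratinocytes (a UMI in 25% of upper follicle cells of both libraries) and the 10 lowest (25% of other keratinocytes of both), and the leading genes of each list. Further genes were picked with their values in view. Some results of these rules are not reported here. The cells and all lists were chosen with earlier results of these data known. Scrublet (expected rate 0.06) marked 7 wildtype and 217 knockout cells, and why so few wildtype cells were marked was not tested. Because these counts were so unequal, the top 5% of its scores (456 and 445 cells) were used instead as an alternative. Other alternatives were thresholds of 0.2% and 0.5%, UMIs of at least 2 rule genes or of *Krt79*, other cell and depth filters, thinning to 2000 UMIs, other scalings, equal weight of cells, other detection rules, and leaving out shared droplets, late cells or immune-marker cells.

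Python 3.11.15, numpy 2.4.6, scipy 1.17.1, pandas 2.3.3, scanpy 1.11.5 and matplotlib 3.10.9 were used, and TMM scaling came from edgeR 4.0.16 in R 4.3.3. Gene spans were matched by identifier to GENCODE M21 for 19035 of 19046 genes. Sums and intervals were tested on simulated data.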

Additional observations from a re-analysis of the deposited data

Results flagged for a closer look

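For 20 of the named genes the log2 ratio, knockout over wildtype, had opposite signs in upper follicle cells and in other keratinocytes, with counting intervals that both left out 0 and at least one of the 2 ratios 0.5 or more from equality. Other genes with opposite signs, such as *Cd200*, *Rbp2*, *Ccn1* and *Zbtb7c* (−0.499 in upper follicle cells), did not meet both conditions. With 1 library per genotype the difference was not tested, and these intervals do not hold the spread between cells. *Igfbp3* was at −1.72 in upper follicle cells and 0.26 in other keratinocytes, *Ptgs2* at −1.84 and 0.05, *Antxr1* at −1.32 and 0.26, *Gja1* at −1.10 and 0.22, *Ndufa4l2* at −0.96 and 0.50, *Sema3d* at −0.76 and 0.16, *Gpc1* at −0.58 and 0.19, and *Fn1* at −0.44 and 0.96. The first 6 of these were among the genes lowest in upper follicle cells relative to other keratinocytes in both libraries. *Bmp2* was at 0.57 and −0.16, *Cd34* at 0.62 and −0.37, *Kprp* at 0.58 and −0.42, *Lfng* at 0.55 and −0.19, and *Lor* at 0.20 and −0.60. Thinned to 2000 UMIs, *Bmp2* (−0.06) and *Lfng* (−0.48) were negative in upper follicle cells too, as was *Kprp* at a threshold of 0.2% (−0.10). *Lor*, which helped to choose the late cells, was at −0.76 without them, at −0.24 without the highest doublet scores and at −0.13 at 0.2%. *Fn1* was at 0.21 without the immune-marker cells and at 0.07 thinned, the sign it had in other keratinocytes. *Sema3d* was at −0.11 with a *Krt79* UMI required and −0.33 without a cell filter, *Gja1* at −0.46 thinned, *Ndufa4l2* at −0.54 without the highest doublet scores and *Cd34* at 0.23 as a mean over cells.

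Immune genes made up the rest. *Cd207* was at 4.96 and −0.45, *C1qa* at 1.44 and −0.24, *Bst2* at 1.23 and −0.58, *Cxcl9* at 0.99 and −1.06, and *Irf7* at 0.61 and −1.06. Without the immune-marker cells the upper follicle ratios of *C1qa* (−1.74), *Bst2* (−0.38), *Cxcl9* (−0.86) and *Irf7* (−0.40) had the same sign as in other keratinocytes, and *Cd207*, which helped to choose those cells, was at 0.10, and at −0.25 without the highest doublet scores. The mast cell genes *Mcpt4* (−4.52 and 2.42) and *Cpa3* (−6.84 and 2.38) had 3 and 0 knockout UMIs in upper follicle cells. The value of *Cpa3* depends on the 0.5 UMI added to each sum and is no bound.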

How the results depend on the processing

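No paired analysis was possible because each genotype has 1 library. The wildtype share of upper follicle cells was 8.05% at a threshold of 0.2%, 5.98% at 0.5%, 6.33% with a *Krt79* UMI required and 7.501% after thinning to 2000 UMIs, and the knockout share 5.22% at 0.2% and 3.93% at 0.5%. The *Eppk1* ratio was −2.34 at 0.5%, −2.04 with a *Krt79* UMI, −1.98 without cell filter, −2.66 thinned, −2.63 as a mean over cells, −2.33 without the deepest 5% of cells and −2.85 without late cells. Counts higher and lower were 20 and 25 thinned (1361 genes tested), and 145 and 225 with a UMI in 10% of cells. They were 439 and 453 with no detection rule, 52 and 72 as a mean over cells, and 30 and 70 without a cell filter. Shared with the full set were 4 and 10 of those thinned, and 24 and 34 of those as a mean over cells. Thinned, 155 genes were higher and 45 lower than in other keratinocytes. Differences of ratios above and below 0.5 numbered 28 and 7 thinned, and 89 and 53 as means over cells.

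For the named genes and list medians, 201 values were recomputed 3415 times, of which 2944 stayed within the counting interval of the reported value (for a list median, within the median half-width of its genes' intervals), 438 moved further, and 33 changed sign from a reported value 0.5 or more from equality, called reversed here. A further 22 changes of sign, in 14 genes such as *Lor*, *Hrnr*, *Krt10* and *Fn1*, were from values under 0.5 whose interval left out 0. Without the highest doublet scores these reversed: *Bst2* −0.54, *Cd207* −0.25, *Cd74* −0.75, *Ctss* −0.997, *Ctsz* −1.22, *Cxcl2* −2.93, *Cxcl9* −0.93, *H2-Aa* −1.04, *Hmox1* −1.11, *Irf7* −0.39, *Isg15* −0.10, *Oasl1* −0.22 and the Langerhans list median −0.94. Without immune-marker cells *Bst2* −0.38, *C1qa* −1.74, *Cd74* −0.11, *Ctss* −1.75, *Ctsz* −0.67, *Cxcl2* −2.23, *Cxcl9* −0.86, *Grn* −0.13, *Hmox1* −0.40, *Irf7* −0.40, *Isg15* −0.013, *Lyz1* −0.21 and *Oasl1* −0.50 did. Thinned, *Bmp2* (−0.065), *Cxcl9* (−0.0091), *Endou* (0.016) and *Lfng* (−0.48) did, and so did *Acat2* as a mean over cells (0.12), *Kprp* at 0.2% (−0.10) and *Slpi* without the deepest cells (0.11). The cause was not tested. The 3 other scalings moved the ratios of all genes together by 0.01. The late and immune-marker settings, and the added settings for levels and differences, were chosen after seeing the data.

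A limit of these data is 1 mouse per genotype: no interval here holds the spread between mice, nor that between dissociations. The intervals of CPM and log2 ratios also leave out the spread between cells, since UMIs were summed over cells. Depth limits genes of few UMIs, since 3 counts in the knockout cells equal 1.04 CPM and ratios of such genes have wide intervals. Summed levels of other cell types' marker genes differed between the libraries, and 5 cells held most UMIs of several named genes. The threshold cuts a continuous range, so shares of cells depend on where it is set.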
